A study of Nilaparvata lugens with 9 samples.

Results

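The change of the miRNAs of the brown planthopper *Nilaparvata lugens* between 3 d and 5 d after emergence was measured in 6 of the 9 deposited small RNA libraries, 3 of each phase, and the 1 d libraries were not used. The females of both phases were untreated adults of the short-winged morph, prepared as whole bodies on the 3rd day (3 d) or the 5th day (5 d) after eclosion. Per the methods of the study, the insects came from a field population reared on susceptible rice, each sample was a pool of insects, and RNA of the size of miRNAs was cut from a gel. No source says that the libraries of 1 phase are separate pools, so p-values measure the spread between these libraries, which may be technical. The extraction protocol in the sample labels is one for mRNA, while the deposited table holds small RNAs only. The table lists 905 entries with 759 distinct mature sequences, of which 721 had a read in the 6 libraries and 38 had none.

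miRNAs are short RNAs cut from the arms of a hairpin precursor, and they lower the output of mRNAs that pair with their seed, bases 2 to 8 of the mature strand. In insect females, some of them act on vitellogenesis, the making of yolk protein in the fat body, and on the growth of oocytes in the ovary, processes that juvenile hormone and ecdysone control. In a whole body, a change of a miRNA can come from its level per cell or from the number of cells that carry it, and fewer cells of a type and less RNA per cell cannot be told apart.

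Names follow the deposited table. A known miRNA carries the prefix of the insect or other animal of its miRBase entry (tca, *Tribolium castaneum*), L and R give bases gained or lost at the 5′ and 3′ ends against that entry, ss marks substitutions, and PC marks a predicted candidate without an entry. The sequences below are those with the smallest unadjusted p in 5 d vs. 3 d, all of them higher in 5 d, written as DNA from 5′ to 3′ with the seed in capitals.

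tca-miR-2788-3p_R+3_1ss11GA: cAATGCCCttagaaatcccaaa

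tca-miR-317-3p_R-3: tGAACACAgctggtggtatctc

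PC-3p-2510_2230: aATAGCTGcagtaatttaact

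PC-5p-41317_196: aATTTGGCactgatagct

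PC-3p-1819_3013: tCGGTAGGcgtgttacctct

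PC-3p-58178_135: cAGTACCCcgaggaaaaga

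PC-3p-71020_108: tGAGAATGaagatgaaaatga

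tca-miR-34-5p_R+3: tGGCAGTGtggttagctggttgt

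No seed was shared among these 8 sequences. The seeds of the 5 PC miRNAs were carried by no other sequence of the table, the miR-317 seed was carried by 4 sequences, the miR-2788 seed by 3 and the miR-34 seed by 2. The sequence of PC-3p-58178_135 and that of PC-3p-71020_108 each differed from their own deposited hairpin at 1 base. Of the 176 PC miRNAs tested, 53 differed from theirs at 1 base or more. The abundant tca-miR-9a-5p_R+1, which was lower in all 5 d libraries, is set below beside a rare form that starts 2 bases earlier and so carries another seed.

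tca-miR-9a-5p_R+1: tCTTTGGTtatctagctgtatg

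bmo-miR-9a-5p_L+2R-2: aATCTTTGgttatctagctgtat

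The 6 libraries held between 1316107 and 3184052 reads on the listed miRNAs, and 3 reads equalled between 0.942 and 2.28 CPM (reads scaled to a common library size). CPM values below are scaled by the TMM factors of edgeR, which were between 0.913 and 1.20. Reads carry no molecular identifiers, so detection floors cover counting error only. As a check of the label, the muscle miRNA tca-miR-1-3p was between 45741 and 62575 CPM and the nervous system miRNA aga-miR-124_R-2 between 424 and 1856 CPM, so both were read in each whole-body library. No mRNA was measured, so ovary and fat body could not be checked.

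The library 3 d replicate 1 stood apart from the other libraries of its phase. Across the tested sequences, its log2 CPM correlated with the other 3 d libraries at an r down to 0.891, against 0.975 between 3 d replicate 2 and replicate 3. With 5 d replicates 1, 2 and 3 its r was 0.958, 0.946 and 0.903. It was the lowest of the 6 libraries in 107 of 295 sequences, against 29 to 49 for each other library, and the highest in 44. Each sequence was counted for 1 library, also where libraries were tied at 0 reads, and 3 d replicate 1 had the fewest reads. These correlations are across miRNAs, which are not independent replicates. The median absolute difference on the log2 scale was between 0.362 and 0.961 within 3 d and between 0.583 and 0.646 within 5 d. For a library of 3 d and one of 5 d it was between 0.460 and 0.821, within the range seen among the 3 d libraries. The upper part of that range, 0.852 and 0.961, came from the pairs with 3 d replicate 1. Without that library, the 3 d pair was at 0.362, below every pair between phases. The 5 d pairs lay within the span of the pairs between phases. Results that rest on 3 d replicate 1 are given with and without it.

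No miRNA passed the test between 3 d and 5 d. Of the 295 sequences that passed the filter on low counts, 119 known and 176 PC miRNAs, edgeR's quasi-likelihood test with Benjamini-Hochberg adjustment called 0 (0%), and the smallest adjusted p was 0.992. At an unadjusted p below 0.05 there were 8 sequences (2.71%), 8 higher (2.71%) and 0 lower (0%) in 5 d. That share was below the 0.05 awaited where no sequence differs. DESeq2 called 0 (0%) with 10 at an unadjusted p below 0.05, 7 higher and 3 lower in 5 d. limma called 0 (0%) with 9, 7 higher and 2 lower, so the absence of lower sequences was not shared by these fits. By sign alone, 162 sequences were higher in 5 d and the remaining ones lower, with a median log2 fold change of 0.04, and 16 were above 1 and 20 below -1. With no filter on low counts, edgeR called 1 of 721 sequences (0.139%), PC-3p-58178_135, with 23 at an unadjusted p below 0.05. Without 3 d replicate 1, edgeR called 0 of 350 sequences and 35 had an unadjusted p below 0.05, 22 of them higher and 13 lower in 5 d.

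**Figure D1:**
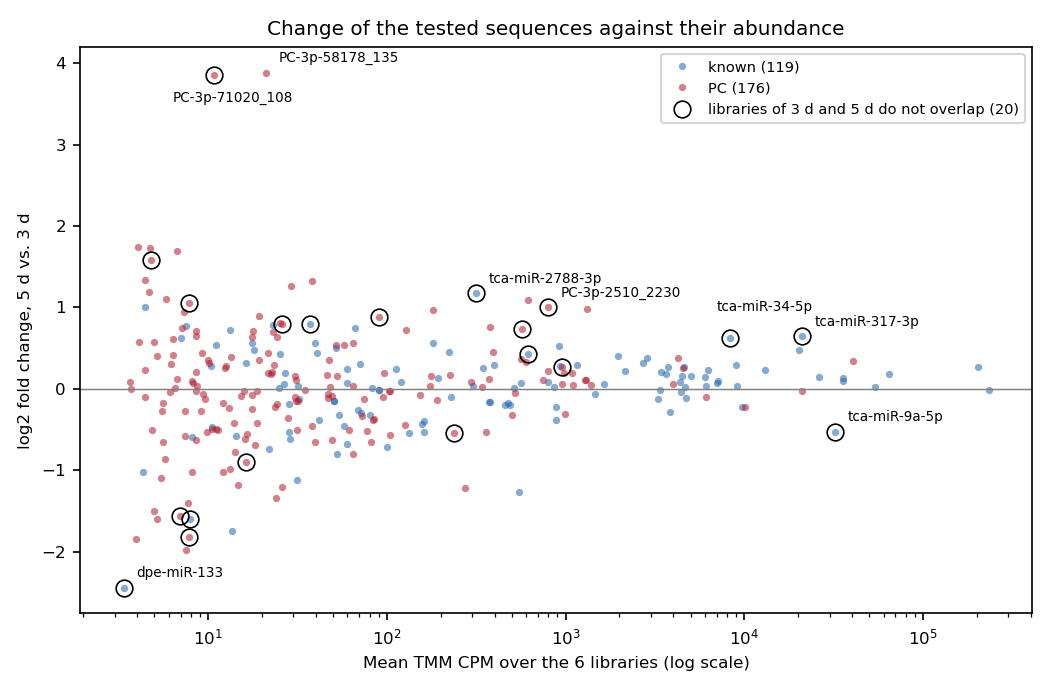
Each point is 1 of the 295 tested sequences, known (119) or PC (176), with its mean TMM CPM over the 6 libraries on a log scale and the log2 of its change from 3 d to 5 d. Circles mark the 20 sequences whose libraries did not overlap; the spread of the points narrows from low to high CPM.

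The order of the libraries gives a second description. In 20 of the 295 sequences (6.78%) the phases did not overlap, with all 5 d libraries above all 3 d libraries in 13 (4.41%) and below them in 7 (2.37%). Without 3 d replicate 1, 41 of 350 sequences were above (11.7%) and 58 below (16.6%), but with 2 libraries left in 3 d an order without overlap is easier to reach and another set of sequences passed the filter, so these counts cannot be set against those of all libraries. With 3 libraries against 3, the smallest p of an exact permutation test is 0.1, and no sequence can reach 0.05 by it. An order without overlap has that p, so a share of 0.1 of the sequences is awaited where the phases do not differ. The share of 6.78% was not above it. Where single miRNAs are said below not to overlap, this is thus description only.

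The miRNA with the smallest p was tca-miR-2788-3p_R+3_1ss11GA. It had 178, 199 and 204 CPM in the 3 d libraries and 499.8, 310.4 and 503 CPM in the 5 d libraries. Every 5 d library was above every 3 d library, with 5 d replicate 2 the lowest of the 5 d libraries. The log2 fold change was 1.18 ± 0.32 (SE, n = 3 and 3), with a 95% interval from 0.43 to 1.92, an unadjusted p of 0.00688 and an adjusted p of 0.992 in edgeR's quasi-likelihood test, and 1.09 without 3 d replicate 1. Its hairpin was listed on the minus strand of scaffold NW_019105609.1 with a start of 623249, and that of dme-miR-193-3p_2ss10AG22CG 8473 bases away on the same strand. The neighbour had 696, 419 and 450.1 CPM in 3 d and 470.1, 556 and 333 CPM in 5 d, with a log2 fold change of -0.20 ± 0.35 (SE). Within a library, where scaling plays no part, the log2 ratio of miR-2788 to miR-193 was -1.96, -1.08 and -1.14 in 3 d and 0.09, -0.84 and 0.60 in 5 d, so the ratios did not overlap. The pair was chosen after its values were seen, and the ratio was not tested.

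The other hairpins of note were those of miR-34, miR-277 and miR-317, which are neighbours in insect genomes. miR-34 is known in *Drosophila* for its part in ageing and in the nervous system, and miR-277 for the control of branched-chain amino acid breakdown. In the deposited table all 3 were listed on the minus strand of scaffold NW_019106660.1, with starts of 120503, 128008 and 143301, 7505 and 15293 bases apart. These are coordinates of a build not given in the sources used here.

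tca-miR-277-3p: tAAATGCActatctggtacgaca

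The level of tca-miR-317-3p_R-3 was 15209, 17200.5 and 17013 CPM in 3 d and 27863, 27876 and 21558 CPM in 5 d. The 3 d libraries lay close together and all 5 d libraries were above them. The log2 fold change was 0.65 ± 0.21 (SE, n = 3 and 3; 95% interval 0.17 to 1.12), which is 1.56-fold, with an unadjusted p of 0.0144 in edgeR's quasi-likelihood test (adjusted p = 0.992), and 0.57 (unadjusted p = 0.0616) without 3 d replicate 1. The level of tca-miR-34-5p_R+3 was 5126, 7245 and 7148 CPM in 3 d and 12485, 8593 and 8930.3 CPM in 5 d. Again the groups did not overlap, with 3 d replicate 1 the lowest and 5 d replicate 1 the highest library. Its log2 fold change was 0.62 ± 0.26 (SE; 95% interval 0.01 to 1.23; unadjusted p = 0.0472, adjusted p = 0.992 in edgeR's quasi-likelihood test), and 0.45 (unadjusted p = 0.163) without 3 d replicate 1. The level of tca-miR-277-3p, between them on the scaffold, was 2147, 4455 and 3698 CPM in 3 d and 2691, 3502 and 3231 CPM in 5 d. These groups overlapped, with a log2 fold change of -0.13 ± 0.32 (SE). The log2 ratio of miR-34 to miR-277 within a library was 1.26, 0.70 and 0.95 in 3 d and 2.21, 1.30 and 1.47 in 5 d, without overlap. That of miR-317 to miR-277 was 2.82, 1.95 and 2.20 in 3 d and 3.37, 2.99 and 2.74 in 5 d, and overlapped through 3 d replicate 1. The ratio of miR-34 to miR-317 overlapped as well. Together, the 5 sequences of the cluster held between 2.70% and 2.77% of the reads in 3 d and between 3.08% and 4.18% in 5 d.

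**Figure D2:**
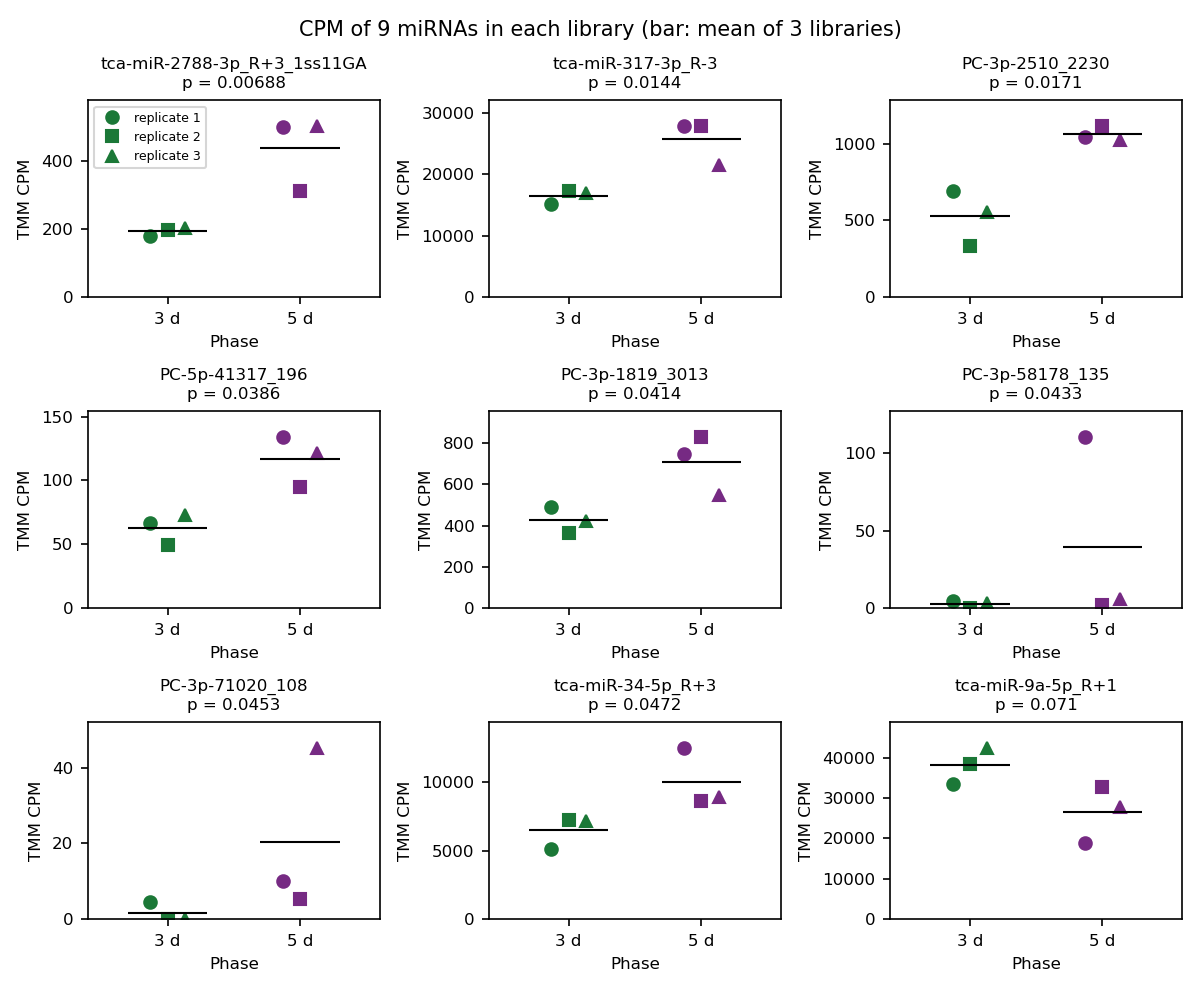
TMM CPM of the 8 sequences with an unadjusted p below 0.05 and of tca-miR-9a-5p_R+1 in each of the 6 libraries, with the phase on the x axis, the shape of a point giving the replicate and bars the mean of 3 libraries. In 7 of the 8 the libraries do not overlap; in PC-3p-58178_135 the mean of 5 d rests on replicate 1.

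Among the PC miRNAs, PC-3p-2510_2230 had 695, 336 and 556 CPM in 3 d and 1043, 1116 and 1022 CPM in 5 d. The 5 d libraries lay close together above all 3 d libraries. The log2 fold change was 1.00 ± 0.33 (SE; 95% interval 0.23 to 1.77; unadjusted p = 0.0171, adjusted p = 0.992 in edgeR's quasi-likelihood test), and 1.23 without 3 d replicate 1. PC-3p-1819_3013 had 489, 364 and 424 CPM in 3 d and 746, 829.7 and 549.5 CPM in 5 d. All 5 d libraries were above those of 3 d, by 0.74 ± 0.30 (SE) on the log2 scale. PC-5p-41317_196, of 18 nt, had 67.0, 49.7 and 72.5 CPM in 3 d and 134, 94.7 and 121 CPM in 5 d. These groups did not overlap either, and the log2 fold change was 0.89 ± 0.36 (SE). Without 3 d replicate 1 the latter 2 changed to 0.83 and 0.91. Leaving out other libraries gave smaller changes. With each library left out in turn, PC-3p-2510_2230 was between 0.69 and 1.23. PC-3p-1819_3013 was between 0.52 and 0.83, and PC-5p-41317_196 between 0.67 and 0.94. The predicted free energy of these 3 hairpins was -27.0, -32.6 and -38.4 kcal/mol.

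The remaining pair with an unadjusted p below 0.05 rested on few reads. PC-3p-58178_135 had 7, 0 and 11 reads in 3 d and 272, 5 and 9 reads in 5 d. Only 5 d replicate 1 was high, and the other 5 d libraries lay within the range of 3 d in reads. In CPM, 5 d replicate 3 (6.16) was above the highest 3 d library (4.43). Its fitted log2 fold change was 3.88 (95% interval 0.15 to 7.61), and 0.59 without 5 d replicate 1. The exact permutation p with all libraries was 0.3 (2-sided), and the free energy of its hairpin was -15.1 kcal/mol. PC-3p-71020_108 had 7, 0 and 0 reads in 3 d and 25, 12 and 66 reads in 5 d. The libraries did not overlap, and most reads of 5 d were in replicate 3. Its fitted log2 fold change was 3.85 (95% interval 0.10 to 7.60), and it depends on the prior count, since 2 libraries were at 0. It was 8.46 without 3 d replicate 1, which held all reads of 3 d, and 2.32 without 5 d replicate 3.

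The most abundant sequence that was lower in 5 d without overlap was tca-miR-9a-5p_R+1. In *Drosophila*, miR-9a keeps the number of sensory organ precursors in check. It had 33374, 38427 and 42394 CPM in 3 d and 18837, 32811 and 27744 CPM in 5 d. The lowest 3 d library was just above the highest 5 d library. The log2 fold change was -0.52 ± 0.25 (SE; 95% interval -1.11 to 0.06; unadjusted p = 0.071, adjusted p = 0.992 in edgeR's quasi-likelihood test), and -0.64 without 3 d replicate 1. With each library left out in turn, it was between -0.77 and -0.37, the latter without 5 d replicate 1. The form that starts 2 bases earlier, bmo-miR-9a-5p_L+2R-2, had 7.59, 12.4 and 15.8 CPM in 3 d and 2.84, 3.54 and 5.47 CPM in 5 d, with a log2 fold change of -1.60 ± 0.77 (SE). It was lower in all 5 d libraries too, on between 7 and 50.5 reads per library. Summed over the 4 sequences with the miR-9a seed, the level was 37132, 46103 and 50035 CPM in 3 d and 23779, 39448 and 33954 CPM in 5 d, and these sums overlapped.

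Of the other sequences lower in all 5 d libraries, dpe-miR-133_R+2 had 7, 14 and 17 reads in 3 d and 7, 0 and 0 reads in 5 d, on libraries of unequal depth. Its fitted log2 fold change was -2.44 ± 1.49 (SE) and depends on the prior count. The main form, tca-miR-133-3p, a muscle miRNA, had 3194, 2084 and 1996 CPM in 3 d and 4323, 2469.6 and 2235 CPM in 5 d, and overlapped. PC-5p-2333_2382, from the arm opposite dme-miR-278-3p_1ss21TC, had 221, 288 and 331 CPM in 3 d and 219.8, 144 and 214 CPM in 5 d. Its highest 5 d library was just below its lowest 3 d library. miR-278, which acts in energy balance in *Drosophila*, had 22816, 14330.4 and 13862 CPM in 3 d and 33612, 17792 and 19362 CPM in 5 d, with overlap and a log2 fold change of 0.47 ± 0.33 (SE). The other 3, PC-5p-162901_37, PC-3p-71874_106 and PC-5p-51837_153, had log2 fold changes of -1.82 ± 1.12, -1.56 ± 1.14 and -0.90 ± 0.54 (SE), on 0 to 59 reads per library.

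Of the other sequences higher in all 5 d libraries, tca-miR-92b-3p_L+1R+1 had 529, 532 and 517 CPM in 3 d and 876, 661 and 583 CPM in 5 d. The 3 d libraries lay close together, and the log2 fold change was 0.43 ± 0.29 (SE). PC-5p-280_24071 had 939, 835 and 836 CPM in 3 d and 1168, 1004 and 973 CPM in 5 d. Its log2 fold change was 0.27 ± 0.25 (SE). For ame-miR-3049-3p_L+1R-2, PC-3p-99602_71, PC-3p-55615_142 and PC-5p-42059_193 the log2 fold changes were 0.79 ± 0.41, 0.79 ± 0.44, 1.05 ± 0.72 and 1.58 ± 1.21 (SE).

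A pair of sequences was found in all libraries of one phase and in none of the other. Neither entered the main test, since both failed the filter on low counts. Without that filter, the adjusted p of each was 0.694 in edgeR's quasi-likelihood test and 0.721 in the study's two-group test.

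PC-3p-154349_40: tGTTCAGGcgtcgcggcgacagatcc

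PC-5p-182481_31: tATTTCTGcagtcttatcatt

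PC-3p-154349_40 had 5, 19 and 9 reads in 3 d and 0 reads in each 5 d library. With a floor of 3 reads set for the phase without reads, the least fold was 10.3, lower in 5 d. PC-5p-182481_31 had 0 reads in each 3 d library and 2.5, 5 and 4.5 reads in 5 d. By the same floor its least fold was 4.27, higher in 5 d. Reads that are not whole come from the authors' split of reads between entries. These folds cover counting error only.

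Of the 10 most abundant miRNAs, those other than miR-317 and miR-9a overlapped between the phases. dme-miR-276b-3p_2ss10AC21CT, an arm of a hairpin that in locusts acts on the timing of egg hatching, had 233203, 242902 and 225672 CPM in 3 d and 246377, 249257 and 199166 CPM in 5 d.

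dme-miR-276b-3p_2ss10AC21CT: tAGGAACTtcataccgtgcttt

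tca-miR-8-3p: tAATACTGtcaggtaaagatgtc

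The libraries overlapped, and the log2 fold change of miR-276b was -0.01 ± 0.16 (SE), with a 95% interval from -0.38 to 0.36. tca-miR-8-3p, a regulator of insulin signalling and growth in the *Drosophila* fat body, had 116543, 237009 and 198530.0 CPM in 3 d and 189168, 172172 and 305382 CPM in 5 d. It was lowest in 3 d replicate 1 and highest in 5 d replicate 3, and its log2 fold change was 0.27 ± 0.32 (SE) with all libraries and -0.01 without 3 d replicate 1. The muscle miRNA tca-miR-1-3p (0.03, 95% interval -0.45 to 0.50), tca-miR-14-3p, which acts in fat metabolism in *Drosophila* (0.13, -0.55 to 0.80), aga-miR-2c-3p_2ss12TC21GA (0.10, -0.33 to 0.52), tca-miR-100-5p_R-2 (0.19, -0.36 to 0.73) and lmi-miR-8-5p (0.14, -0.42 to 0.70) had log2 fold changes whose intervals held 0.

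**Figure D3:**
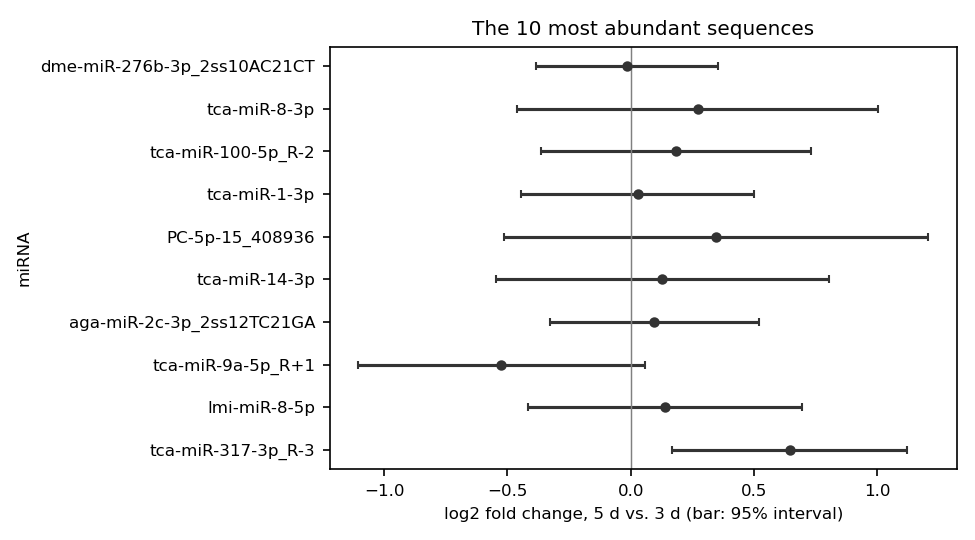
The log2 fold change in 5 d vs. 3 d of the 10 sequences with the highest mean CPM, most abundant at the top, with the 95% interval of edgeR's fit. Only the interval of tca-miR-317-3p_R-3 (0.17 to 1.12) leaves out 0.

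PC-5p-15_408936 was the most abundant PC miRNA. It had 18880.1, 45197 and 43313 CPM in 3 d and 51278, 30624 and 54771 CPM in 5 d, a difference of 0.35 ± 0.37 (SE) on the log2 scale and of 0.01 without 3 d replicate 1. It shared its seed with 4 other sequences of the table, among them the known tca-miR-2765-5p, which had 5451, 6879 and 4936 CPM in 3 d and 8785, 5672 and 5893 CPM in 5 d.

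PC-5p-15_408936: tGGTAACTccgaaccaccgttgg

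Precision followed abundance. Of the 59 sequences whose mean reached 1000 CPM in either phase, 35 had a 95% interval within a log2 fold change of 1 on either side of 0, as did 16 of 58 sequences from 100 to 1000 CPM, 2 of those from 10 to 100 CPM and 0 of 45 under 10 CPM. Among the 59 abundant sequences 46 were higher in 5 d with TMM factors, but 33 with library totals alone, 31 with upper-quartile factors and 33 without 3 d replicate 1, so the direction of this class depends on the scaling and on that library. Library totals and upper-quartile factors moved the median of all sequences by -0.12 and -0.13 on the log2 scale, and the 162 higher sequences became 126, with 169 lower, or 123, with 172 lower.

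The miRNA groups known from work on insect reproduction and development were read against the median of 0.04 and the 8 of 295 sequences (2.71%) at an unadjusted p below 0.05. In mosquitoes, miR-275 is needed for blood digestion and egg development. Of the cluster of miR-275 and miR-305, 1 of 4 tested sequences was higher and 3 lower, and none had an unadjusted p below 0.05. Its main form tca-miR-275-3p had 12131, 11885 and 11922 CPM in 3 d and 18324, 11374 and 12413 CPM in 5 d. The 5 d libraries lay on both sides of those of 3 d, with replicate 1 the highest, and the log2 fold change was 0.23 ± 0.25 (SE), and -0.0548 without 5 d replicate 1. Its partner tcf-miR-305 differed by -0.28 ± 0.24 (SE). For miR-184, which is needed in the female germline of *Drosophila*, 3 of 4 tested sequences were higher and 1 lower, and tca-miR-184-3p had 9011, 6537 and 8497 CPM in 3 d and 12857, 7853 and 8774 CPM in 5 d. These overlapped, with a log2 fold change of 0.29 ± 0.27 (SE).

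In the let-7 complex, which times metamorphosis in *Drosophila*, 4 of 8 tested sequences were higher and 4 lower. Its hairpins of miR-125, let-7 and miR-100 were listed on the minus strand of scaffold NW_019105995.1, and the starts of let-7 and miR-100 were 2493 bases apart. The main form tca-let-7-5p_R+1 had 11206, 6743 and 8929.7 CPM in 3 d and 10135, 8693 and 8723 CPM in 5 d, a log2 fold change of 0.04 ± 0.26 (SE). The form pte-let-7-5p_1ss12GA, with the same seed, had 1528, 356 and 434 CPM in 3 d and 441, 285 and 240.2 CPM in 5 d. It was high in 3 d replicate 1 alone, and its log2 fold change was -1.26 ± 0.59 (SE) with that library and -0.32 ± 0.38 (SE) without it.

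tca-let-7-5p_R+1: tGAGGTAGtaggttgtatagt

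pte-let-7-5p_1ss12GA: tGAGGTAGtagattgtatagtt

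Among miR-8 sequences 4 of 6 tested were higher and 2 lower, among miR-2/13/71 sequences, which in *Drosophila* include regulators of cell death genes, 6 of 7 were higher and 1 lower, and among sequences of miR-1 and miR-133, known from muscle, 3 of 7 were higher and 4 lower. The median log2 fold changes of these groups were 0.09, 0.14 and -0.23. Of the group of miR-279 and miR-996, 3 of 6 were higher and 3 lower. Its main form tca-miR-279b-3p had 9999, 11005 and 10469 CPM in 3 d and 6307, 13694 and 7044 CPM in 5 d, with overlap and a log2 fold change of -0.22 ± 0.33 (SE). A PC sequence with the miR-279 seed, PC-3p-31_242819, had 21406, 22039.9 and 20441 CPM in 3 d and 12063, 36443 and 14171 CPM in 5 d. The 3 d libraries lay between the 5 d libraries, of which replicate 2 was high. The cluster of miR-34 and the pair of miR-193 and miR-2788 held the 3 known miRNAs at an unadjusted p below 0.05, and none of the other named groups held any. No sequence named miR-989 is in the table used here, and the group set up for bantam and miR-14 held miR-14 sequences only.

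The main forms of the other groups overlapped between the phases. dqu-miR-750-3p had 4203, 8345 and 7987 CPM in 3 d and 5307, 8645 and 7686 CPM in 5 d. tca-miR-10-5p, whose gene lies in the Hox complex in insects, had 2406, 5467 and 6449 CPM in 3 d and 5283, 2858 and 7798 CPM in 5 d. tca-miR-7-5p_R-1, which acts in photoreceptor development in *Drosophila*, had 2042, 5496 and 7112 CPM in 3 d and 3136, 3598 and 6880.1 CPM in 5 d. In all 3 miRNAs, 3 d replicate 1 was the lowest library. The log2 fold changes were 0.08 ± 0.33, 0.15 ± 0.47 and -0.11 ± 0.49 (SE), and without 3 d replicate 1 they were -0.21, -0.20 and -0.51. For tca-miR-263a-5p_R-2, tca-miR-92a-3p_L+1R+1_1ss10AT and tca-miR-12-5p_R+2_1ss10CT the log2 fold changes were -0.07 ± 0.37, 0.09 ± 0.35 and 0.44 ± 0.58 (SE).

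**Figure D4:**
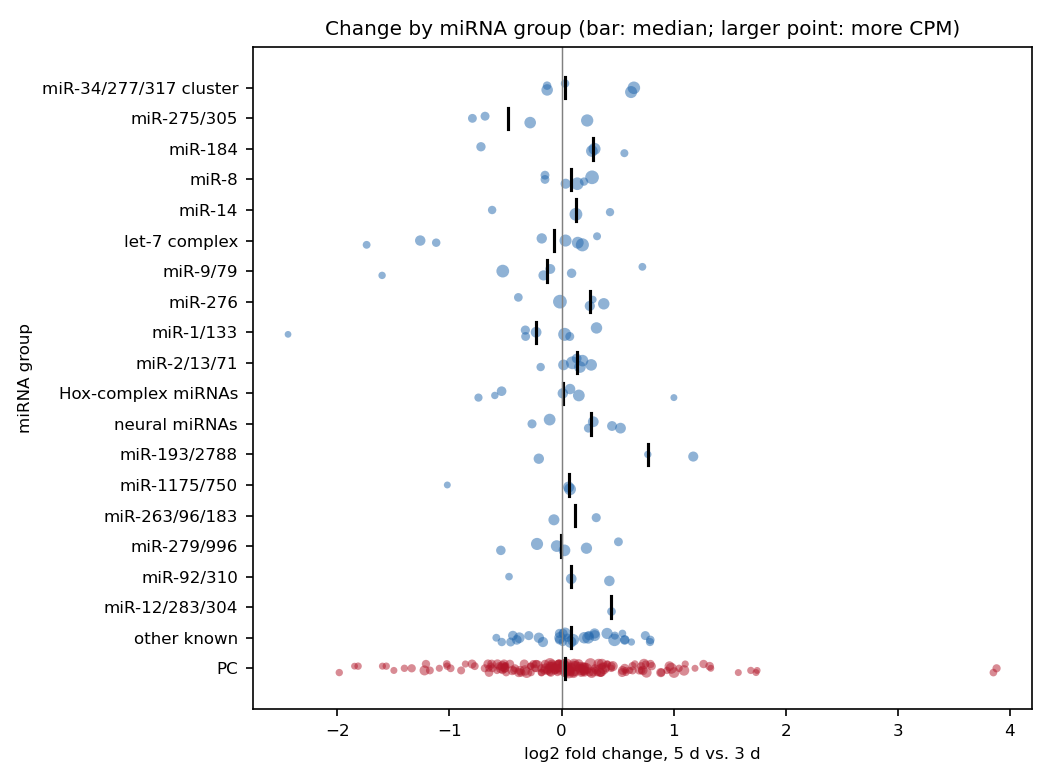
The log2 fold change in 5 d vs. 3 d of each tested sequence by miRNA group, known miRNAs in blue and PC miRNAs in red, with the group median as a bar and larger points for more CPM. The medians of the groups of more than 4 tested sequences lie between -0.23 and 0.26.

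Forms of one miRNA that differ at the 3′ end were compared within each library, as the percent of reads of the main form, which does not depend on scaling. This comparison was added after the data had been seen, and it was not tested. There were 19 pairs of a tested known miRNA with at least 1000 reads and a less abundant form with the same start and 1 to 4 more bases, from 18 distinct longer forms. The longer forms of 14 pairs had no genome position. An example is the pair of miR-184.

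tca-miR-184-3p: tGGACGGAgaactgataagggc

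tur-miR-184-3p_R+2: tGGACGGAgaactgataagggcaa

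The longer miR-184 form was at 0.260%, 2.54% and 2.15% of the main form in 3 d and at 0.446%, 1.12% and 0.928% in 5 d. It was lowest in 3 d replicate 1, and the other 3 d libraries were above all 5 d libraries. For miR-2765 the longer form was at 1.78%, 11.6% and 11.5% in 3 d and at 2.75%, 7.84% and 9.96% in 5 d, again lowest in 3 d replicate 1. For tca-miR-34-5p_R+3 it was at 0%, 0.700% and 0.691% in 3 d and at 0.153%, 0.216% and 0.613% in 5 d. Over the 19 pairs, 3 d replicate 1 was the lowest library in 14 and the highest in none. The 14 include miR-750, where it was tied at 0% with 5 d replicates 1 and 2. The longer forms tca-miR-8-5p_R+2_1 and tca-miR-8-5p_R+2_2 had the same percent in each library. The difference of the mean log2 ratio (plus 0.5 reads in each form) was lower in 5 d in 14 pairs and higher in 5, with a median of -0.20. Without 3 d replicate 1 it was lower in 18 pairs and higher in 1, with a median of -0.92. In 1 pair, that of miR-133, the libraries did not overlap. Pairs of one library share that library, and they are not replicates.

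**Figure D5:**
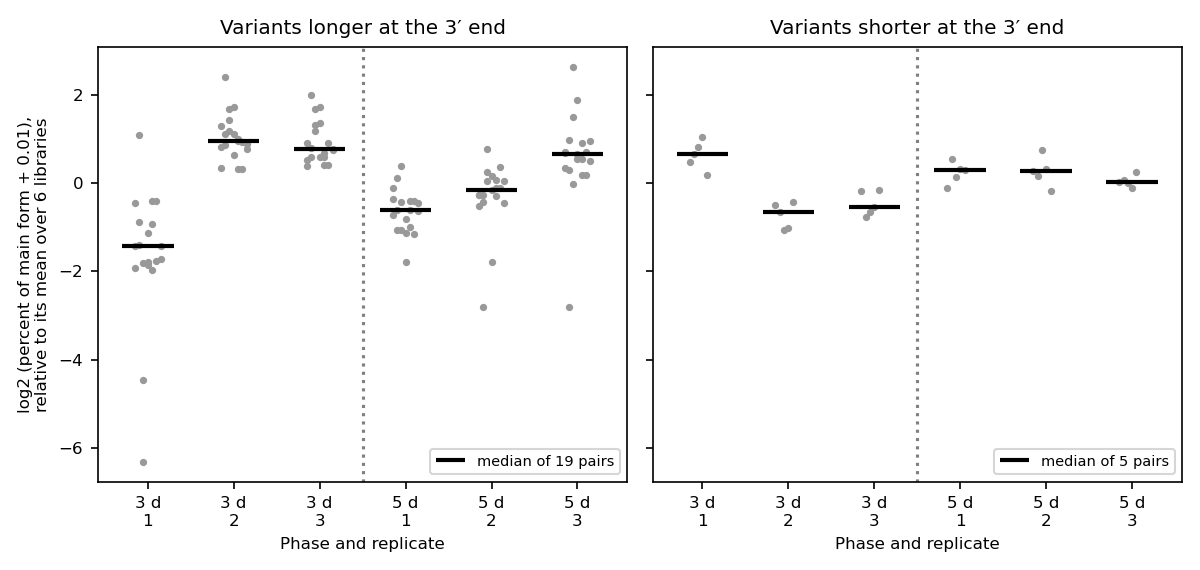
For each library, the log2 of the percent of reads of a 3′ variant relative to its main form (plus 0.01), centred on its mean over the 6 libraries, in 19 pairs with a longer variant and 5 with a shorter one, with bars for the median of the pairs. Longer variants are lowest and shorter ones highest in 3 d replicate 1.

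Shorter forms went the other way. In 5 pairs with a form 1 to 4 bases shorter, 3 d replicate 1 was the highest library in 4, and all 5 differences were positive, with a median of 0.44 with and 0.98 without 3 d replicate 1. For the shorter form of miR-276b, tca-miR-276-3p_R-2, the share of the main form was 1.80%, 0.729% and 0.665% in 3 d and 1.67%, 1.28% and 1.20% in 5 d. The same libraries differed in the length of all their reads on listed miRNAs. Sequences of 18 to 20 nt held 1.68%, 0.518% and 0.569% of the reads in 3 d and 1.09%, 1.13% and 0.696% in 5 d, and those of 24 to 26 nt held 2.06%, 3.46% and 3.10% in 3 d and 2.24%, 1.94% and 3.19% in 5 d. The part of read length in any difference between the phases was not tested.

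Several sequences with a small p without 3 d replicate 1 were high in that library. PC-5p-11173_639, with the smallest adjusted p there (0.0720 in edgeR's quasi-likelihood test, log2 fold change 3.49 ± 0.58, SE), had 144 CPM in 3 d replicate 1, 4.86 and 8.24 CPM in the other 3 d libraries and 65.4, 46.9 and 119 CPM in 5 d. With all libraries its log2 fold change was 0.56. api-miR-996_R-2 had 99.9 CPM in 3 d replicate 1, 19.4 and 10.1 CPM in the others and 66.6, 83.2 and 32.8 CPM in 5 d, and its log2 fold change was 2.03 without and 0.51 with that library.

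PC-5p-11173_639: aAGGTCGTtgttgttgtc

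api-miR-996_R-2: tGACTAGAgttacactcgt

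Differences in the make-up of the libraries lay within their spread. PC miRNAs took 11.3% ± 1.45 (SD, n = 3) of the reads in 3 d and 11.7% ± 0.0174 (SD, n = 3) in 5 d, with 3 d replicate 1 the lowest at 9.62%. Sequences of 22 nt took 64.1% ± 5.22 (SD, n = 3) and 61.5% ± 5.999 (SD, n = 3), and those of 23 nt took 27.1% ± 5.98 (SD, n = 3) and 30.4% ± 6.49 (SD, n = 3). Of the 10 shares compared, the smallest p of the exact permutation test (2-sided) was 0.4, with an adjusted p of 1.

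The use of the 2 arms of a hairpin was compared within each library as the log2 ratio of 5p to 3p reads. Both arms were listed for 58 hairpins, and 49 had at least 10 reads on each arm. The ratio did not overlap between the phases in 1 of them, PC-3p-15330_496 with PC-5p-417132_7, whose minor arm had few reads, and in 0 of 40 hairpins with at least 30 reads on each arm. For tca-miR-9a-5p_R+1 and its 3p arm the mean log2 ratio was 7.35 ± 0.42 (SD, n = 3) in 3 d and 6.95 ± 0.98 (SD, n = 3) in 5 d, and the exact permutation p (2-sided) was 0.7, adjusted over the 49 hairpins 0.903. For tca-miR-1-3p and its 5p arm it was -9.86 ± 0.57 and -9.81 ± 0.58 (SD, n = 3 each).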

How the data were processed

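Small RNA reads of the 3 d and 5 d libraries were analysed from the deposited expression table. The authors cleaned reads with ACGT101-miR, removed other RNA families and repeats, and searched miRBase 22 and an *N. lugens* genome of a build not given in the sources used here. Nor do they give the program's version. Raw columns hold estimated counts as deposited by the authors, with reads split between entries, and were rounded to whole numbers. Normalized columns hold a signal, the raw reads times 1 factor per library set by the authors.

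One entry was kept per distinct sequence. In R 4.3.3, edgeR 4.0.16 tested each difference by its quasi-likelihood F-test (legacy form, TMM factors, its default filter by phase on low counts), 2-sided, with phase as the only term and Benjamini-Hochberg adjustment over the 295 sequences tested, and a threshold of 0.05. The standard error is the absolute log2 fold change over the square root of F. The common biological coefficient of variation was 0.583. Alternatives were DESeq2 1.42.0, limma 3.58.1 on the authors' normalized signal (log2 plus 1, 0.5 or 10), other factors and filters, all 9 libraries and isoforms summed. Further ones were the replicate number as a block, the study's two-group test without its exclusion of low levels, and each library left out. Exact permutation tests compared single values.

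Named were sequences at an adjusted or unadjusted p below 0.05, the 10 most abundant, the 10 largest changes without overlap whose mean reached 10 CPM in either phase, the main and any non-overlapping member of each family, and those read in all libraries of 1 phase only. The others named, miR-124, miR-133, miR-277, miR-278, miR-305, miR-996, miR-2765, let-7, PC-3p-31_242819, PC-5p-11173_639, the arm pairs, the remaining sequences without overlap and the end variants, were chosen after their values were seen. Members, groups and tests were chosen with earlier results of these data known.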

Additional observations from a re-analysis of the deposited data

How the results depend on the processing

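With edgeR's quasi-likelihood test 0 miRNAs were called under all alternatives but one: with no filter on low counts 1 was called. The study's two-group test, run here without the study's exclusion of low levels, gave 17 of 721 sequences at an unadjusted p below 0.05. Of these, 10 had a log2 fold change above 1 in size. In edgeR, 8 of 295 had an unadjusted p below 0.05. The 17 and 10 are thus not counts by the study's full procedure. At an unadjusted p, leaving out a library gave 3 to 35. Deviations of same-numbered libraries correlated at 0.46, 0.04 and 0.37 for replicates 1, 2 and 3. For 3 d replicates 1 and 3, this was their highest correlation with a 5 d library. By contrast, 3 d replicate 2 correlated best with 5 d replicate 3 (0.29). Whether the replicate numbers mark pairs was not tested. With the replicate number as a block, 0 were called and 9 had an unadjusted p below 0.05. Non-overlapping miRNAs lower in 5 d were 11 with upper-quartile factors (3.73%) and 12 of 721 with no filter (1.66%), against 7 (2.37%); leaving out a library gave 17 to 58 below (5.17% to 16.6%) and 17 to 41 above (5.04% to 11.7%), of 323 to 357 sequences and with 2 libraries against 3, so these are not comparable with the counts of 3 against 3. Hairpins whose arm ratio did not overlap were 1 at 10 reads and 0 at 30. Leaving out a library moved the difference of the shares from -0.42 to 0.96 percentage points for PC miRNAs, from -4.93 to 0.73 for 22 nt and from -0.31 to 6.003 for 23 nt. Of 664 log2 fold changes of the 35 named and tested miRNAs under these settings, 610 kept direction and side of the threshold and 53 changed sign, in 15 miRNAs with a log2 fold change between -0.20 and 0.44 with all libraries; the cause was not tested.

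By setting, miR-276b was 0.0382 with limma at each pseudocount, 0.0429 with the authors' factors and 0.00118 with a filter of 10 CPM; miR-1 was -0.0294 (DESeq2, RLE factors), -0.0899 (library totals), -0.0966 (upper-quartile), -0.0335 (no filter) and -0.0446 (9 libraries); miR-2c was -0.0373 and -0.0285, and miR-750 -0.0161 and -0.0498, with library totals and upper-quartile factors; miR-10 was -0.00511 with upper-quartile factors; miR-7 was 0.0459 with limma at a pseudocount of 1 and 0.5 and 0.0457 at 10; miR-92a was -0.0129 (DESeq2), -0.0131 (RLE), -0.0914 (library totals), -0.0346 (upper-quartile) and -0.00906 (9 libraries). Leaving out a library gave miR-276b -0.15 to 0.0229, miR-8-3p -0.0746 to 0.44, miR-100 -0.00521 to 0.28, miR-1 -0.16 to 0.0910, miR-14 -0.0875 to 0.29, miR-2c -0.00926 to 0.13, miR-8-5p -0.0883 to 0.22, miR-275 -0.0548 to 0.27, miR-750 -0.21 to 0.22, miR-10 -0.27 to 0.40, miR-7 -0.57 to 0.19, miR-263a -0.26 to 0.17, miR-92a -0.19 to 0.43, miR-193 -0.47 to 0.0397 and miR-12 -0.32 to 0.75. Below 10 CPM, no interval lay within a log2 change of 1 on either side of 0, so a change of that size could not be told from none.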

Other observations

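The 1 d libraries enter no comparison here, and their values are set beside the others as CPM scaled together over all 9 libraries. tca-miR-34-5p_R+3 had 2699, 2332 and 2941 CPM in 1 d, against means of 6327 CPM in 3 d and 9256 CPM in 5 d. tca-miR-317-3p_R-3 had 10459.7, 11038 and 11764 CPM in 1 d, against means of 16075 and 23885 CPM. tca-miR-2788-3p_R+3_1ss11GA had 104, 117 and 127 CPM in 1 d, against means of 189 and 404 CPM. For these 3 miRNAs the libraries of 1 d lay below those of 3 d and 5 d.

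tca-miR-9a-5p_R+1 had 62458, 62414 and 81858 CPM in 1 d, against means of 37090.3 CPM in 3 d and 24513 CPM in 5 d, and its 1 d libraries lay above all others. PC-3p-2510_2230 had 719, 504 and 918 CPM in 1 d, within the span from the lowest 3 d to the highest 5 d library. PC-3p-71874_106 had 0, 0 and 3.62 CPM in 1 d, against means of 10.2 CPM in 3 d and 3.23 CPM in 5 d.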
